A study of Mus musculus with 6 samples.

Results

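Bile acid synthesis, transport and its feedback control by the nuclear receptors FXR and SHP were followed through 10 genes in mouse liver: Nr1h4, Nr0b2, Cyp7a1, Cyp8b1, Cyp27a1, Cyp7b1, Cyp39a1, Baat, Abcb11 and Slc10a1. A probe belonged to a gene when its sequence accession, taken without version, was a RefSeq transcript of that gene. By this rule 9 of the 10 genes had a probe, 1 each, out of 13971 named genes on the array. No probe matched Cyp7a1, the rate-limiting enzyme of the classical pathway, which was not analysed here.

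Hepatocytes make bile acids from cholesterol and pump them into bile, and the acids return from the gut through the portal blood. FXR, encoded by Nr1h4, is the receptor that senses them. It induces SHP, encoded by Nr0b2, which lacks a DNA-binding domain and represses the synthesis genes, and it also induces the export pump BSEP, encoded by Abcb11. Cyp7a1 and Cyp8b1 belong to the classical pathway, Cyp27a1 and Cyp7b1 to the alternative pathway, and Cyp39a1 hydroxylates a brain-derived oxysterol.

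RNA came from livers of C57BL/6 mice aged 14 months. The labels number a mouse for each transgenic array and a liver control for each wild-type array. The 3 wild-type arrays carry the replicate numbers 1, 2 and 4, and the 3 Src-transgenic arrays carry 1, 3 and 4. The transgene was human c-Src, a tyrosine kinase, placed behind the mouse metallothionein promoter, a zinc-inducible promoter active in liver. Zinc was usually not needed to induce it, and the labels do not say whether these mice received any. The labels also give neither the sex of the mice nor whether the tissue held tumour. The aim the study gives was to find targets of Src that might take part in tumour formation, which some older transgenic mice show in the liver. Neither the number of founder lines nor pooling is given, and p-values measure only the spread between these arrays. A further 2 arrays were left out by the study for low signal.

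The sequence before the start of Nr0b2 is shown because that gene had the largest change of the 9. The one before Abcb11 is shown because FXR also induces that gene. Both are from RefSeq on GRCm38.p6, 250 bases up to the annotated start, and 6 of the 10 genes had such a sequence. The Nr0b2 sequence lies at chr4:133553126-133553375 on the plus strand, and the Abcb11 sequence at chr2:69342617-69342866 on the minus strand. Capitals mark matches to 2 motifs, searched on both strands. They are the inverted repeat AGGTCANTGACCT bound by FXR with its partner RXR, with at most 2 mismatches, and the monomer motif CAAGGTCA of the NR5A receptors, with at most 1.
Nr0b2: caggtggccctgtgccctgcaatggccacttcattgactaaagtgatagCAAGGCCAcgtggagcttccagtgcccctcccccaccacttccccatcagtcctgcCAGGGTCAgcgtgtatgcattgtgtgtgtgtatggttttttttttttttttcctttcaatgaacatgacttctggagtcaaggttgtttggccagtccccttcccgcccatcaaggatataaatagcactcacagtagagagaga
Abcb11: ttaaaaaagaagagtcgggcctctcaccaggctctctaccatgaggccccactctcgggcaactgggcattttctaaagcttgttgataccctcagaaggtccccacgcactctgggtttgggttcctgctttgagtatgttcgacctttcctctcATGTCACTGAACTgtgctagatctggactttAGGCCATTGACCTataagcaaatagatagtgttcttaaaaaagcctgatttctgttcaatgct

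Counted back from the start, which follows position -1, Abcb11 held the inverted repeat with 1 mismatch at -63 to -51 and with 2 mismatches at -94 to -82. Of 32851 windows of this length, 0.959% held a match. Nr0b2 held the NR5A motif with 1 mismatch at -201 to -194 and at -145 to -138, and 19.6% of all windows held a match. Of the other genes, Cyp8b1 held the NR5A motif at -60 to -53 with 1 mismatch. The NR5A motif contains the repeat unit of the other motif, and a match describes the letters, not a binding site.

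Facts of the whole set bear on every value. Median probe signals were 53.8 to 93.4 on the wild-type and 94.8 to 117 on the transgenic arrays, and pairwise correlations of log2 signal were 0.86 to 0.94 over all probes. On the normalized log2 scale, Src ranged from 6.62 to 7.21 in wild-type and from 7.71 to 9.67 in transgenic livers. Its probe was matched to the mouse transcript, and whether it also reads the human transgene was not tested. Mt1, an endogenous gene of the promoter that drives the transgene, read 9.72 to 11.50 and 13.71 to 14.38, and Mt2 read 4.87 to 5.85 and 9.68 to 11.06. The 10 hepatocyte marker genes with a probe were above background on all 6 arrays, with a mean log2 level of 13.8 to 13.9 in wild-type and 13.8 to 14.0 in transgenic livers. For the 8 bile duct markers this mean was 6.19 to 6.62 and 6.20 to 6.73, and 5 of them were above background on all arrays. Of the 8, 2 had a positive and 6 a negative log2 change. The defining bile duct gene Krt19 was above background on 1 array. Krt7, another duct keratin gene, was above background on all 6. Krt7 read 6.61 to 6.87 in wild-type and 7.09 to 8.57 in transgenic livers, with its spot in a patch on transgenic replicate 3. For the endothelial, stellate cell, lymphocyte and gallbladder or intestine markers the ranges of the mean log2 level overlapped between the groups. All 6 macrophage markers read highest on transgenic replicate 4, where their mean was 10.31, against 9.25 to 9.73 on the other 5 arrays. Of 4 Y-linked genes, transgenic replicate 4 had 1 above background and each other array all 4. On that array Eif2s3y read 4.94 and Ddx3y 2.74, against 8.63 to 9.65 and 6.75 to 7.73 on the others. Uty read 5.18 there, against 6.18 to 7.10. Kdm5d, the 1 above background, went the other way, with its highest value of 9.03 there against 8.32 to 8.74. The labels give no sex, so the transgenic group, and each mean over it, may hold both sexes.

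Of the 9 genes, 7 had a negative and 2 a positive log2 change in transgenic against wild-type livers, with a median of -0.25. Over all 34175 features tested the median was 0.02, and over the 62 other bile acid pathway genes with a probe it was -0.01. No gene passed limma's test at an adjusted p under 0.05, and neither did any feature at all (0 of 34175, 0%). At an unadjusted p under 0.05, 1 of the 9 was lower (Nr0b2) where 2.72% of all features were, and 1 was higher (Cyp39a1) where 4.37% were. In 5 of the 9 the groups were fully apart, namely 3 lower (Nr0b2, Abcb11, Slc10a1) and 2 higher (Cyp39a1, Nr1h4). Over all features 5.9% were lower and 10.1% higher without overlap, together 16%. Among the 9616 named genes above background on all arrays, as all 9 were, the share was 15.4%. A patch is a region of an array where neighbouring spots read bright or dim together. With local correction of patches the count was 3 of 9 (Nr0b2 and Cyp7b1 lower, Cyp39a1 higher), where 17.7% of all features did not overlap, and without transgenic replicate 3 it was 8 of 9, where 23.8% of all features did not overlap.

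**Figure D1:**
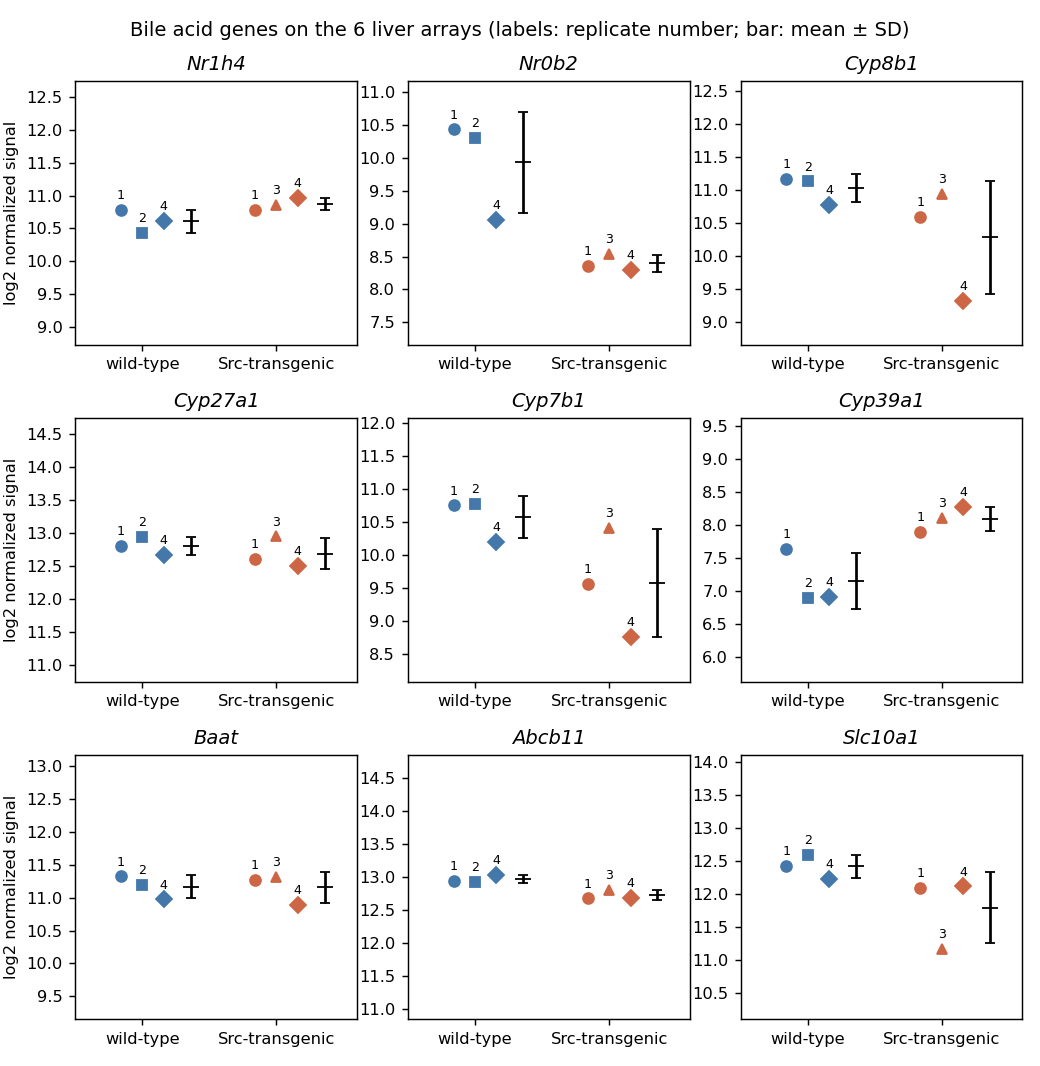
Quantile-normalized log2 signal of the 9 genes on each array, wild-type in blue and Src-transgenic in orange, with the replicate number above each point and the mean ± SD (n = 3) as a bar; every panel spans 4 log2 units. Nr0b2 is below the wild-type arrays on all 3 transgenic arrays, and Cyp39a1 is above them. Cyp8b1 and Cyp7b1 are lowest on transgenic replicate 4.

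Nr0b2 encodes SHP, the repressor that FXR induces when bile acids are plentiful. Its normalized log2 signal was 10.43, 10.30 and 9.05 on wild-type replicates 1, 2 and 4, and 8.36, 8.54 and 8.29 on transgenic replicates 1, 3 and 4. In linear signal before normalization these were 1093, 1062 and 559 against 353, 455 and 411. All 3 transgenic arrays lay below all 3 wild-type arrays, and wild-type replicate 4 lay closest to them, 0.51 above the nearest. The groups read 9.93 ± 0.76 and 8.40 ± 0.13 (SD, n = 3 each), a log2 change of -1.53 ± 0.39 (SE), or 2.89-fold lower, with a 95% interval of -2.49 to -0.57. The change did not pass over all features (limma adjusted p = 0.69). By exact permutation of the group labels, two-sided, p was 0.1, and a design of 3 against 3 cannot go lower. Leaving out single arrays gave -1.97 to -1.28, the former without wild-type replicate 4. In a bulk sample, fewer cells of a type and less RNA per cell cannot be told apart.

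Nr1h4 encodes FXR itself, and its change had the opposite sign to that of Nr0b2. In wild-type livers it read 10.78, 10.43 and 10.61, and in transgenic livers 10.78, 10.86 and 10.96. The groups were separated by only 0.0033. Its difference was 0.26 ± 0.19 (SE) on the log2 scale, with a 95% interval of -0.21 to 0.72 (limma adjusted p = 0.74). Its spot lay in a bright patch on transgenic replicate 4, where the surrounding spots read 0.87 above their usual level, and with local correction the change was -0.30. Median scaling in place of quantile normalization gave -0.0033. The direction of Nr1h4 thus depended on the processing, while that of Nr0b2 was negative under every one of the 16 alternatives run. Several of these could not have turned the sign of Nr0b2. Some alter only the test, and leaving out or reweighting arrays cannot reverse groups that are fully apart.

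Among the synthesis enzymes, Cyp8b1 and Cyp7b1 read lowest on transgenic replicate 4. Cyp8b1, the sterol 12-alpha-hydroxylase that sets the proportion of cholic acid, read 11.17, 11.13 and 10.78 in wild-type and 10.59, 10.94 and 9.31 in transgenic livers. The groups overlapped, since transgenic replicate 3 was above wild-type replicate 4. Cyp8b1 had a log2 change of -0.75 ± 0.44 (SE), with a 95% interval of -1.82 to 0.33 (limma adjusted p = 0.71). Without transgenic replicate 4 it was -0.26.

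Cyp7b1, the oxysterol 7-alpha-hydroxylase, is known as a male-predominant gene of mouse liver. It read 10.75, 10.77 and 10.20 in wild-type and 9.56, 10.40 and 8.75 in transgenic livers. Transgenic replicates 1 and 4 lay below every wild-type array, and replicate 3 lay inside their range. Its log2 change was -1.0 ± 0.44 (SE), or 2.00-fold lower, with a 95% interval of -2.08 to 0.08 (limma adjusted p = 0.69). Without transgenic replicate 4 it was -0.59.

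Cyp39a1, the oxysterol 24-hydroxycholesterol 7-alpha-hydroxylase, is known as female-predominant. It read 7.64, 6.90 and 6.91 in wild-type and 7.90, 8.11 and 8.27 in transgenic livers. In linear signal before normalization the values were 121, 104 and 129 against 260, 343 and 406, and the median probe signal was also higher on the transgenic arrays. All 3 transgenic arrays were higher than all 3 wild-type arrays, and the groups stood 0.26 apart on the log2 scale. For Cyp39a1 the log2 change was 0.94 ± 0.27 (SE), or 1.92-fold higher, with a 95% interval of 0.28 to 1.61 (limma adjusted p = 0.69). The exact permutation test gave p = 0.1. Without transgenic replicate 4 the change was 0.86, and over all single arrays left out it was 0.82 to 1.19.

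Lists of genes that differ between male and female mouse livers varied on the same arrays. All 12 female-biased genes with a probe had a positive change, with a median of 1.77, and 10 of 12 male-biased genes a negative one, with a median of -1.0. Over all 34175 features, 17674 changes were positive and 16501 negative. Only 7 of the 12 female-biased genes were above background on all arrays, and 11 of the 12 male-biased genes were. The lists hold Slco1a1 but none of the 10 genes. The mean log2 level of the female-biased minus that of the male-biased genes was -4.10 to -3.78 on the wild-type arrays. On the transgenic arrays it was -1.46 on replicate 1, -2.60 on replicate 3 and 2.10 on replicate 4. Cyp7b1 ran in the reverse order over the transgenic arrays, highest on replicate 3 and lowest on replicate 4. Cyp39a1 was above the wild-type arrays on all 3 and differed by less between them. The part of this contrast, and of the macrophage markers that were highest on replicate 4, in the values of Cyp7b1, Cyp8b1 and Cyp39a1 was not tested. On transgenic replicates 1 and 3, which had all 4 Y-linked genes above background, the mean of the female-biased list was 1.54 and 0.89 above the wild-type mean, and on replicate 4 it was 3.91 above.

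Cyp27a1, the mitochondrial sterol 27-hydroxylase that opens the alternative pathway, differed little. It read 12.80, 12.94 and 12.67 in wild-type and 12.61, 12.95 and 12.50 in transgenic livers, and the groups overlapped. Cyp27a1 had a log2 change of -0.12 ± 0.21 (SE), with a 95% interval of -0.63 to 0.39 (limma adjusted p = 0.88), and -0.46 with median scaling. Baat, which joins bile acids to taurine or glycine, read 11.32, 11.20 and 10.97 against 11.27, 11.31 and 10.88, again with overlap. Its log2 change was -0.01 ± 0.22 (SE), with a 95% interval of -0.54 to 0.52 (limma adjusted p = 0.99). It was -0.29 with median scaling, and its sign changed with the processing. As folds, the intervals ran from 0.647 to 1.31 for Cyp27a1 and from 0.689 to 1.43 for Baat.

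**Figure D2:**
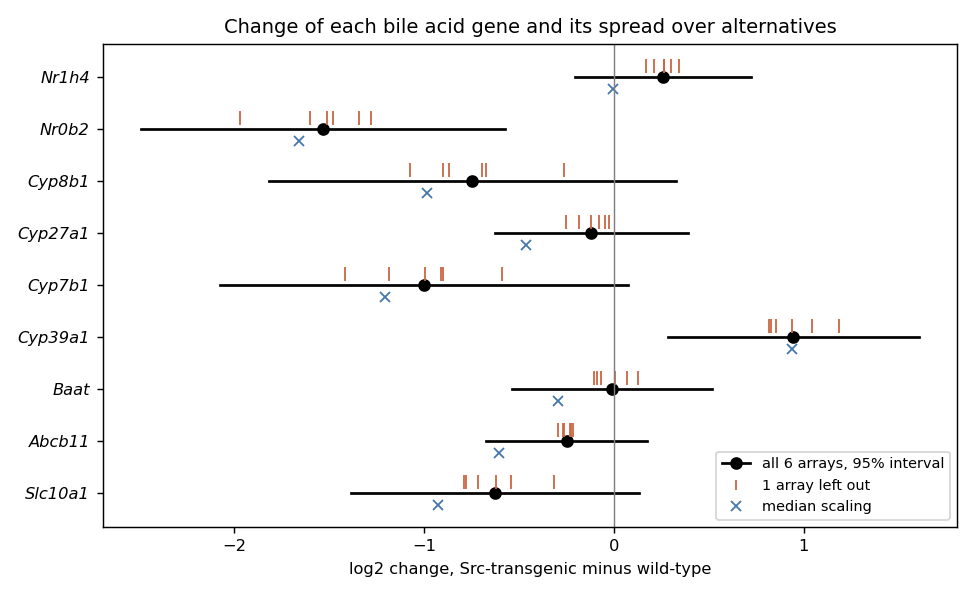
Log2 change of each of the 9 genes (Src-transgenic minus wild-type): black points and lines give limma's estimate and 95% interval over 6 arrays, orange ticks the estimates with 1 array left out, and blue crosses the estimate with median scaling. The intervals of Nr0b2 (-2.49 to -0.57) and Cyp39a1 (0.28 to 1.61) lie to 1 side of 0, before any adjustment for the number of features, and the other 7 span it.

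Both transporters read lower without overlap between the groups, by small amounts, but with local correction of patches the groups overlapped for both. Abcb11, the canalicular export pump, read 12.95, 12.93 and 13.04 in wild-type and 12.68, 12.81 and 12.69 in transgenic livers. Abcb11 had a log2 change of -0.25 ± 0.17 (SE), with a 95% interval of -0.67 to 0.17 (limma adjusted p = 0.73). Its 2 groups had the smallest spread of the 9 genes, an SD of 0.06 and 0.08. In linear signal before normalization its arrays ran from 6864 to 8508 in wild-type and from 6812 to 8234 in transgenic livers and overlapped. Those signals are not on a common scale, since every transgenic array had a higher median probe signal than every wild-type array. Local correction gave -0.15. Median scaling gave -0.60, on a scale where the median of the 2220 brightest features was -0.26.

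Slc10a1, the basolateral uptake carrier NTCP that brings bile acids back from portal blood, read 12.43, 12.59 and 12.23 in wild-type livers. It read 12.09, 11.17 and 12.11 in transgenic livers, so replicate 3 was the low array. Slc10a1 had a log2 change of -0.63 ± 0.31 (SE), with a 95% interval of -1.38 to 0.13 (limma adjusted p = 0.69). Without transgenic replicate 3 it was -0.31. The spots around that probe read 0.47 below their usual level on that array, which was under the limit for a patch, and with local correction the change was -0.33.

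**Figure D3:**
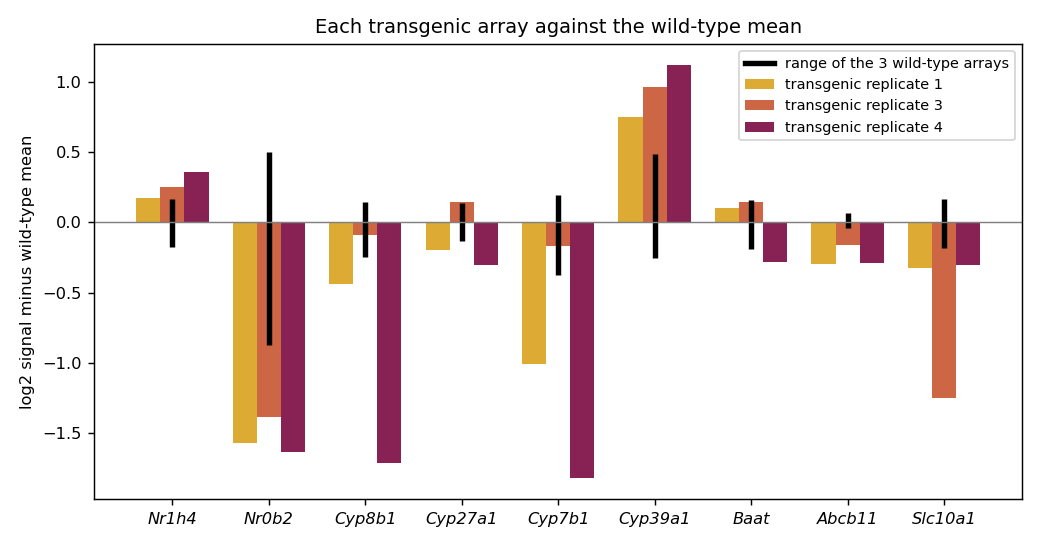
Log2 signal on each transgenic array minus the wild-type mean, for the 9 genes; black lines span the 3 wild-type arrays. The 3 transgenic arrays give similar values for Nr0b2 (-1.63 to -1.39), whereas transgenic replicate 4 stands out for Cyp8b1 (-1.71) and Cyp7b1 (-1.82), and replicate 3 for Slc10a1 (-1.25).

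The transgenic arrays differed from each other more for some genes than for others. Against the wild-type mean, Nr0b2 lay at -1.57, -1.39 and -1.63 on transgenic replicates 1, 3 and 4. For Cyp8b1 the values were -0.44, -0.09 and -1.71, and for Cyp7b1 -1.01, -0.17 and -1.82. In wild-type livers Nr0b2 itself had the widest spread of the 9 genes, an SD of 0.76, and in transgenic livers it had an SD of 0.13.

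The wider pathway was read from a list of 71 further genes, of which 62 had a probe. Of these 31 had a positive and 31 a negative change, 0 passed over all features (limma), and 10 had groups that did not overlap, or 4 higher and 6 lower, beside 10.1% and 5.9% of all features. Before adjustment, 2 higher and 1 lower had a p under 0.05, beside 4.37% and 2.72% of all features. Leaving out wild-type replicate 1, 2 or 4 left 1 in each case, beside 5.36%, 5.74% and 8.46% of all features. The medians were 0.02 for 16 ring and side chain enzymes, -0.02 for 6 conjugation and activation genes and 0.09 for 13 transporters. They were -0.10 for 16 nuclear receptors and cofactors and -0.07 for 11 genes of the FGF15 receptor arm and other signals.

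Acnat2, a paralog of Baat, had the largest change of the list. It read 8.18, 7.95 and 7.55 in wild-type and 10.70, 9.79 and 9.38 in transgenic livers, with no overlap. The log2 change was 2.07 ± 0.38 (SE), or 4.19-fold higher (limma adjusted p = 0.69), and 1.70 to 2.35 with single arrays left out. Probe sequences were not used here, so signal shared between such paralogs was not checked. Baat had -0.01 on the same arrays.

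Slco1a1, an organic anion uptake carrier with male-predominant expression, read 11.84, 11.99 and 11.56 in wild-type and 10.30, 11.40 and 8.95 in transgenic livers. Its log2 change was -1.58 ± 0.60 (SE) (limma adjusted p = 0.69), and -0.95 without transgenic replicate 4, the same array on which Cyp7b1 and Cyp8b1 were lowest. The Slco1a1 spot lay in a patch on wild-type replicate 2, and local correction gave -1.30. Fgf15 encodes the gut hormone that signals to the liver to stop bile acid synthesis. It read 6.05 to 6.11 in wild-type and 6.46 to 6.56 in transgenic livers, a log2 change of 0.42 ± 0.17 (SE) (limma adjusted p = 0.69), and 0.24 with local correction. The Fgf15 probe was dim. Linear signal before normalization was 41.1 to 71.2 in wild-type and 94.5 to 119 in transgenic livers, beside background limits of 33.0 to 50.6.

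Other receptors gave small values, none of which passed (limma adjusted p of 0.69 to 0.71). Hnf4a, a hepatocyte factor that activates bile acid genes, had a log2 change of 0.45 ± 0.21 (SE), which local correction reduced to 0.0049, and its spot lay in a patch on transgenic replicate 4. Thrb, a thyroid hormone receptor gene, had 0.30 ± 0.19, and 0.10 with local correction. Rxrb, which encodes a partner of FXR, had -0.37 ± 0.22, and -0.19 without wild-type replicate 1. Nr1h3, which encodes the oxysterol receptor LXR alpha, had -0.36 ± 0.20, and -0.24 without wild-type replicate 1. Ppara, a fatty acid receptor gene, had -0.40 ± 0.22, -0.25 without wild-type replicate 2 and -0.87 with local correction, its spot lying in a patch on transgenic replicate 4. Of the enzymes, the peroxisomal oxidase gene Acox2 had -0.33 ± 0.20, or -0.19 without transgenic replicate 4. Ch25h, the cholesterol 25-hydroxylase gene, had 1.64 ± 0.82, was above background on 4 of the 6 arrays, and had 0.93 without transgenic replicate 4. The Ch25h spot lay in a patch on transgenic replicate 3, and local correction gave 0.96. Egr1, an immediate early gene chosen here after its values were seen, read 9.72 on transgenic replicate 1 and 5.71 to 6.44 on the other 5 arrays.

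**Figure D4:**
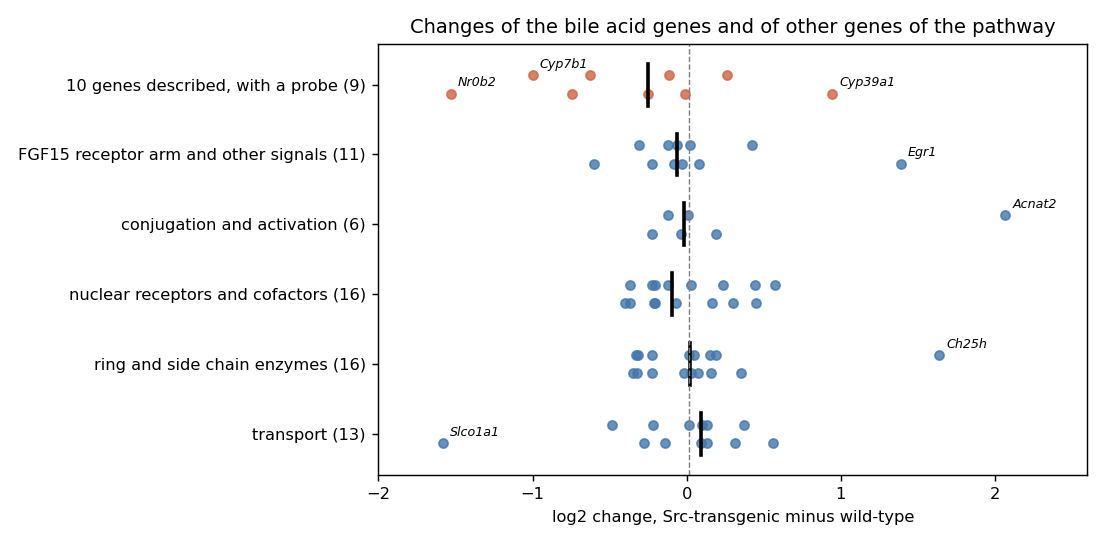
Log2 change (Src-transgenic minus wild-type) of the 9 genes with a probe and of 62 other genes of the pathway in 5 groups, with the number of genes in parentheses; each point is a gene, the black bar is the median of its row, and the dashed line is the median of all features (0.02). Genes with a change over 0.9 either way are named, among them Nr0b2 at -1.53, Cyp39a1 at 0.94 and Acnat2 at 2.07.

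Other genes known to be induced by FXR were read as a further list beside Nr0b2 and Abcb11, and it shares Abcb4 and Slc51b with the transporters above. Of 13 listed genes 12 had a probe, with 7 positive and 5 negative changes, a median of 0.03 and none past the threshold (limma). The kininogen gene Kng1 had a log2 change of 0.41 ± 0.20 (SE) and the complement gene C3 0.33 ± 0.19. The phospholipid transfer protein gene Pltp had -0.58 ± 0.30, and -0.30 without wild-type replicate 1. With median scaling Kng1 had 0.07 and C3 turned to -0.03, and C3, in a patch on wild-type replicate 4, had 1.00 with local correction.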

How the data were processed

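The values were 1-colour array intensities from 6 mouse liver samples. Per the file headers, the deposited intensity of a spot is its signal after background was taken out by the authors, on a linear scale. The scanner was not given in the sources used here. Of 35587 spots, 620 bacterial controls were left out. Accessions matched in RefSeq (GRCm38.p6) named 14763 of 34967 probes, and a gene with several probes was represented by the brightest. Signals were floored at the 1st percentile of each array, converted to log2 and quantile normalized. A probe was above background when its signal was more than 3 scaled median absolute deviations over the median of 570 control spots (a limit of 33.0 to 50.6). A patch is a place where the spots within 4 rows and columns deviated by a median of over 0.5.

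Tests used limma 3.58.1 (R 4.3.3) over 34175 features (two-sided, Benjamini-Hochberg). SEs and 95% intervals are limma's moderated ones. Only the limma fit was tested on simulated data, with independent normal noise, and the steps before it were not. The 10 genes and all lists were chosen with earlier results of these data known. All 10 genes were named, with the pathway genes of smallest p, up to 10, and 3 FXR-induced genes. The number of arrays limits precision. Figures were drawn with matplotlib 3.10.9.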

Additional observations from a re-analysis of the deposited data

How the results depend on the processing

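The changes of the named genes and the counts of calls were recomputed under 16 alternatives (15 for Ch25h, Egr1 and Mt2, which the filter on dim probes left out), with scalings, floors, filters, spread models, array weights, patch correction, the authors' value table and each array left out. For the genes beyond the first 9 these were applied after the data were seen. The change kept its sign under all of them for 7 of the 9 genes, and the lowest adjusted p of any of the 9 was 0.57 (limma). Not all alternatives could move a change. The filter on dim probes, the trended spread and testing every probe separately alter only the test. The higher floor left the changes of the 9 genes as they were. The authors' table nearly repeated median scaling, with Nr0b2 at -1.66 in both. Nr1h4 turned to -0.0033 with median scaling, -0.0029 in the authors' table and -0.30 with local correction. Baat turned to 0.028 with array weights and 0.029 with local correction, and leaving out single arrays gave -0.11 to 0.13. C3 turned to -0.029 with median scaling and in the authors' table. Median scaling moved the 2220 brightest features (mean log2 of 10 or more), which include 7 of the 9 genes, from a median of 0.01 to -0.26. Relative to that, Cyp7b1 at -1.21, Cyp8b1 at -0.98, Slc10a1 at -0.93, Abcb11 at -0.60 and Cyp27a1 at -0.46 were lower. Baat at -0.29 was close to it, and Nr1h4 at -0.0033 was higher. With median scaling, and in the authors' table, 6 of the 9 had groups without overlap (15.6% of all features in both). Of the 9 genes, 4 had an unadjusted p under 0.05 with a trended spread (6.77% of all features), and 3 had groups without overlap after local correction (17.7%). The count without overlap ran from 5 to 8 with single arrays left out (23.8% to 31.3%). There the count of other pathway genes at an unadjusted p under 0.05 ran from 1 to 3 (4.96% to 8.46% of all features). Testing every probe separately called 1 feature, as did leaving out wild-type replicate 1 or transgenic replicate 4 (range 0 to 1), and none was 1 of the 9. The change with the replicate number as a block was estimated from the 2 numbers the groups share. With it, 2 of the 9 had an unadjusted p under 0.05 (3.94% of all features), namely Nr0b2 at -1.41 and Cyp7b1 at -1.32. Cyp39a1 at 0.81 no longer did, and Slc10a1 was at -0.23. Same-numbered arrays hardly deviated together, with correlations of 0.06 for both. Both were above those of arrays with unlike numbers, which ran from -0.07 to 0.02. All were small, so the numbers were not taken as pairs. The cause of these shifts was not tested.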
